A study of Homo sapiens with 9 samples.

Results

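Genes that set which exons are kept in mRNA were compared between PC3 multicellular tumor spheroids (MTSs) carrying the empty vector, NF-YAl or NF-YAs. Members were chosen by gene symbol alone: the serine- and arginine-rich factors (SRSF), TRA2, the heterogeneous nuclear ribonucleoproteins (HNRNP), and the PTBP, RBFOX, MBNL, QKI, CELF, NOVA and KHDRBS genes. The symbols picked 58 of the 27111 genes in the deposited tables, and 51 of them passed the filter on low counts, out of 17108 genes tested.

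PC3 (PC-3 in the labels) is a prostate cancer cell line from a bone metastasis. All 3 lines were transduced with lentivirus and selected with puromycin, the Empty line with vector alone and the others with murine NF-YAl or murine NF-YAs, and each grew as MTSs for about a week before RNA was taken from a pool of spheroids. The labels give 3 libraries for each group, lettered A, B and C for Empty and NF-YAs and A, B and D for NF-YAl, and the study describes independent experiments. Each condition is 1 transduced line, so the isoform and the line cannot be told apart.

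NF-YA is the DNA-binding subunit of the trimer NF-Y, which recognises the CCAAT box in promoters. Its own pre-mRNA is alternatively spliced: NF-YAl keeps an exon in the activation domain that NF-YAs lacks. Splicing regulators act by binding short motifs in pre-mRNA. SR proteins and TRA2 proteins mostly bind exonic enhancers and promote inclusion, HNRNP and PTBP proteins often repress, and RBFOX, MBNL, CELF, NOVA and QKI proteins can do either depending on where they bind. Many of these genes also control their own output through an exon that carries a premature stop and sends the transcript to nonsense-mediated decay.

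The libraries held 18076979 to 27163976 estimated counts in genes, and between 20072 and 20717 genes had a count. NFYA checked the labels of Empty against those of the NF-YA lines. It was at 89.2, 96.7 and 89.4 CPM (counts scaled to the library total) in the Empty libraries. It was at 287, 383 and 353 CPM in NF-YAl, and at 264, 263 and 254 CPM in NF-YAs. Reads from the murine transgenes can be counted on the human gene, so these values hold transgene and endogenous RNA together. The gene total does not show which isoform a library carries, so the labels of NF-YAl and NF-YAs were taken as given. KRT8, KRT18, KRT19 and VIM were detected in all libraries, as PC3 cells have them, and KLK3 was listed at 0. NF-YAl D stood apart from the other NF-YAl libraries in composition: its 10 most abundant genes took 18.9% of TPM (transcript level per length), against 38.3 to 49.6% in the other 8 libraries, so levels below are TPM in Empty only and comparisons use CPM scaled by TMM (trimmed mean of M values).

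Splicing regulators were mostly abundant in Empty MTSs, and levels spanned over 3 orders of magnitude. Of the 51 tested members, 41 lay above the median TPM of all tested genes. HNRNPA1, which represses splice sites and shuttles mRNA, was highest at 346 ± 51.9 TPM (SD, n = 3), followed by the SR protein gene SRSF5 at 247 ± 6.39 TPM. Their ranges, 313 to 406 and 240 to 252 TPM, did not overlap. HNRNPK, HNRNPL and HNRNPAB came next at 149 ± 14.7, 130 ± 13.2 and 126 ± 23.8 TPM, and the ranges of each neighbouring pair overlapped. HNRNPA1 has many processed pseudogenes, so its counts are uncertain.

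Within families, one member usually dominated. PTBP1, the pyrimidine-tract repressor of most non-neuronal cells, was at 78.6 ± 12.4 TPM, and its neuronal paralogue PTBP2 at 2.41 ± 0.749 TPM. KHDRBS1 (SAM68) was at 58.5 TPM, MBNL1 at 47.5, RBFOX2 at 33.8, CELF1 at 29.4, TRA2B at 26.7, QKI at 11.5 and NOVA1 at 5.72 TPM. At the low end, the neuronal regulator NOVA2 had 0.213 ± 0.0839 TPM, and SRSF12, RBFOX3, MBNL3, CELF3, CELF4 and CELF5 were all below 1 TPM.

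**Figure D1:**
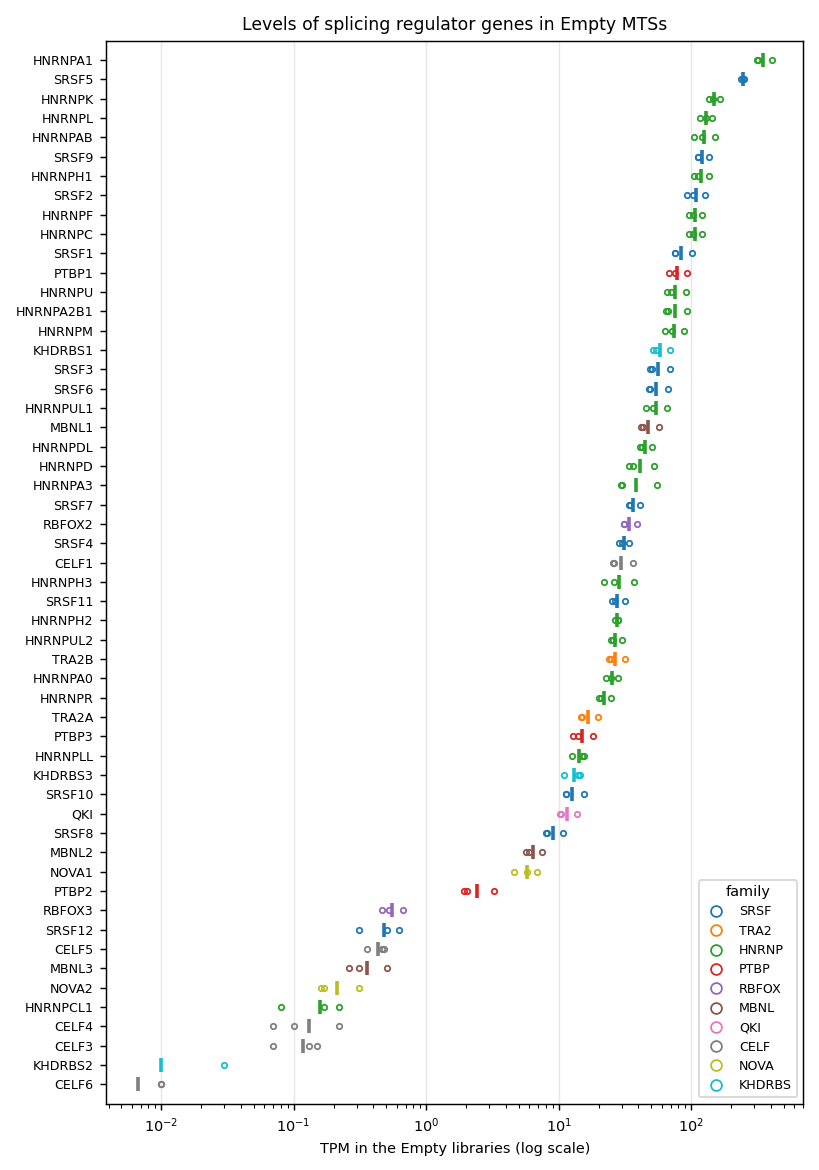
TPM of each splicing regulator gene in the Empty libraries (circles, 1 per library; tick, mean of n = 3) on a log axis, coloured by family. HNRNPA1 and SRSF5 lie at the top with means of 346 and 247 TPM; genes at 0 in all Empty libraries and single libraries at 0 are not drawn.

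The 7 members left out by the filter were CELF2, CELF6, HNRNPCL1, HNRNPCL2, HNRNPKP3, KHDRBS2 and RBFOX1. RBFOX1 and HNRNPKP3 had no counts in any library, KHDRBS2 had 1 count in Empty A, HNRNPCL2 had 0.9 in NF-YAs C, and CELF6 had at most 3 in a library. HNRNPCL1, a near-identical copy of HNRNPC whose reads can be split between the genes, had 0 to 5 counts. CELF2 is described below.

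The first question was which regulators changed when either isoform was overexpressed. NOVA2 was called higher in both lines, PTBP2 in NF-YAl only, and SRSF9, HNRNPA2B1 and TRA2A in NF-YAs only. These calls do not separate the lines, since no member was called between them in this fit. PTBP2 also lay above Empty without overlap in NF-YAs, and SRSF9 in NF-YAl. No member was called lower in either line. A gene was called when edgeR's adjusted p fell below 0.01, and was a differentially expressed gene (DEG) when its log2 fold change (log2FC) also passed 1 in size, the thresholds of the study's methods.

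In NF-YAl against Empty, 2 of 51 members were called higher and 0 lower, while 10% of all tested genes were called higher and 9.54% lower. In NF-YAs against Empty, 4 members were called higher and 0 lower, against 12.1% and 10.5% of all genes. At an unadjusted p under 0.05, 10 members (19.6%) passed in the NF-YAl comparison and 16 (31.4%) in the NF-YAs comparison, against 42.19% and 45.02% of all genes. These comparisons share the Empty libraries. As lower DEGs, 0 members were called in either, against 3.50% and 3.90% of all genes. In this fit, the share of members called was below that of all genes in each direction. For members higher in NF-YAs this depended on the settings. At an adjusted p under 0.05, 19.6% of members were higher in NF-YAs, against 18.5% of all genes. The share of members was also above that of all genes in DESeq2, in a fit of only the groups compared and with a replicate block.

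Member changes were small. The median log2FC was 0.06 in NF-YAl and 0.07 in NF-YAs (0.01 and −0.00 over all genes), and the median size regardless of sign was 0.17 and 0.16, compared with 0.30 and 0.33 for all genes. The 95% interval lay wholly inside ±0.5 on the log2 scale for 32 members in NF-YAl (62.7%, against 30.4% of all genes) and for 27 in NF-YAs (52.9%, against 28.9%). It lay inside ±1 for 44 of 51 members in each comparison. The median SE of members was 0.117 in each, against 0.153 over all genes, so the interval counts also reflect precision. Members were mostly abundant, and the genes set beside them were not matched for abundance. The library values of NF-YAl and Empty did not overlap for 12 members (23.5%, against 42.4% of all genes), and those of NF-YAs and Empty for 27 (52.9%, against 56.4%).

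By family, the 20 tested HNRNP genes had a median log2FC of −0.05 in NF-YAl and 0.06 in NF-YAs, and the 12 SRSF genes 0.06 and 0.04. No gene of the HNRNP, SRSF, TRA2, MBNL, QKI, RBFOX, CELF or KHDRBS families was called in NF-YAl. In NF-YAs, 1 HNRNP, 1 SRSF, 1 TRA2 and 1 NOVA gene were called. The most abundant members of each family were not called in either line: HNRNPA1 had log2FC −0.21 and −0.08, SRSF5 −0.00 and −0.02, and PTBP1 −0.09 and 0.16 in NF-YAl and NF-YAs. The values of KHDRBS1 (−0.10 and −0.04), MBNL1 (0.08 and 0.10), RBFOX2 (−0.12 and −0.08), CELF1 (0.08 and 0.14), TRA2B (0.31 and 0.16), QKI (0.17 and 0.16) and NOVA1 (−0.09 and 0.25) did not pass either.

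**Figure D2:**
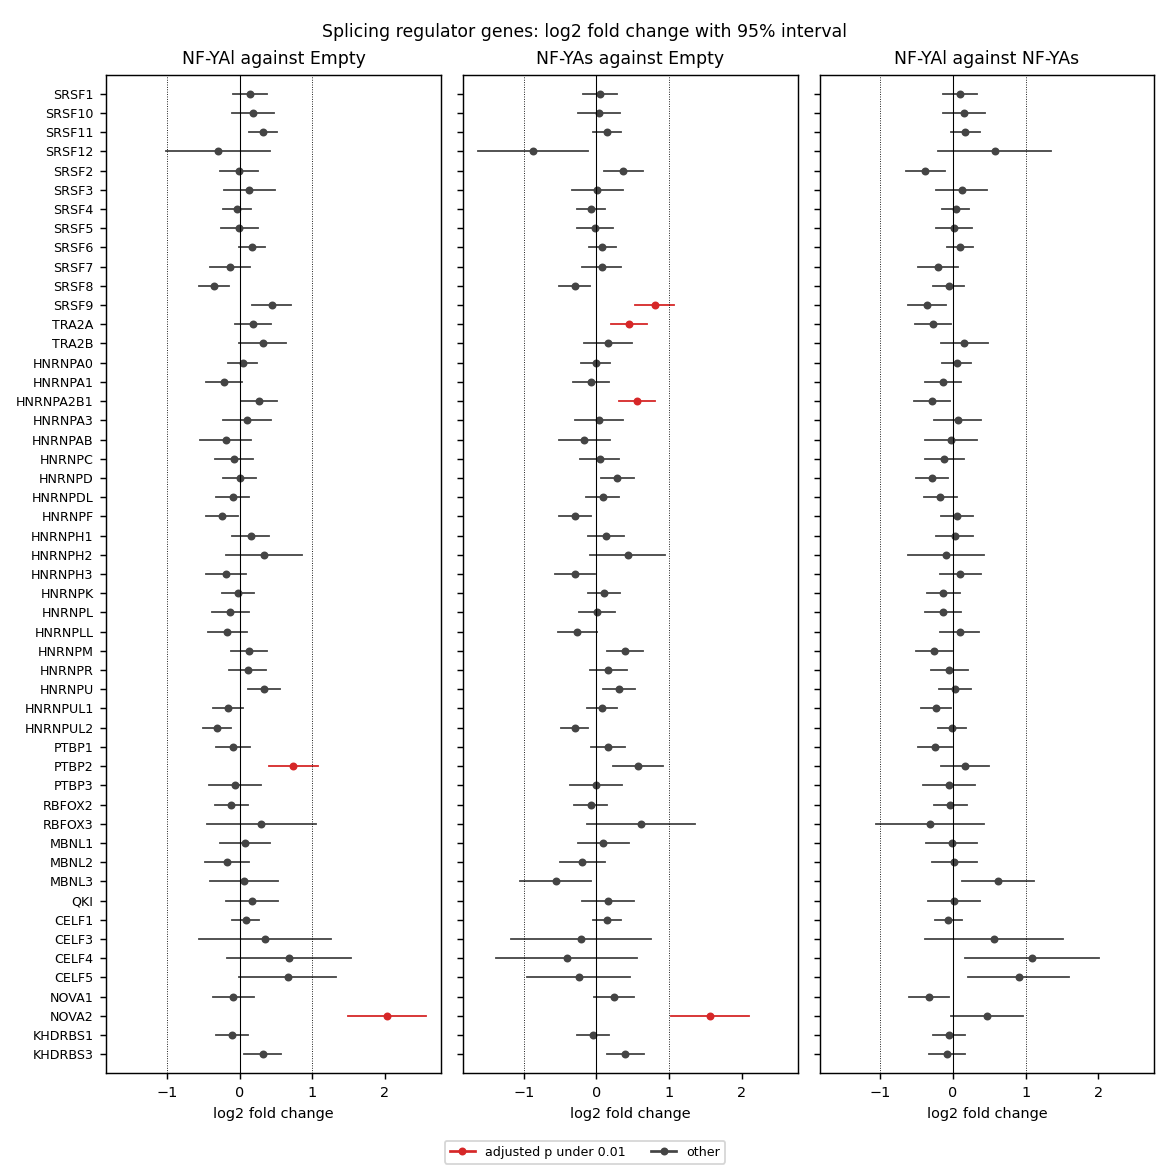
Log2 fold change (point) with 95% interval (line) of the 51 tested members in the 3 comparisons, with dotted lines at −1 and 1 and genes at an adjusted p under 0.01 in red. NOVA2 reached 2.03 in NF-YAl and 1.56 in NF-YAs, while most intervals lay within ±0.5.

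NOVA2 showed the largest change among the called members. It lies on chromosome 19 (GRCh37 chr19:46436992-46477302, − strand), and its protein binds clusters of short pyrimidine-flanked CA motifs. It was at 1.76, 1.19 and 1.3 CPM in Empty, at 6.79, 6.46 and 4.15 CPM in NF-YAl, and at 4.69, 3.88 and 4.01 CPM in NF-YAs. Every library of both NF-YA lines lay above every Empty library. The log2FC was 2.03 in NF-YAl (SE 0.245, 95% interval 1.49 to 2.56, edgeR adjusted p = 7.6e-05) and 1.56 in NF-YAs (SE 0.248, interval 1.02 to 2.10, adjusted p = 0.000457), a DEG in both. NOVA2 was thus 1 of the 815 genes (4.76%) that were higher DEGs in NF-YAl and 1 of the 931 (5.44%) in NF-YAs. The difference between NF-YAl and NF-YAs, 0.47, did not pass (interval −0.03 to 0.96, adjusted p = 0.158). Its paralogue NOVA1 was above it per length in Empty. In bulk RNA, fewer cells expressing a gene and less RNA per cell cannot be told apart, here and for each gene below.

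PTBP2 (chr1:97187221-97289294, + strand) represses neuronal exons early in differentiation and is itself held low by PTBP1. It had 7.97, 6.52 and 6.38 CPM in Empty, 12.8, 9.98 and 11.99 CPM in NF-YAl, and 11.6, 9.90 and 9.49 CPM in NF-YAs. Both NF-YA groups lay above Empty with no overlap. The log2FC of 0.74 in NF-YAl passed the test (SE 0.155, adjusted p = 0.00345), while 0.57 in NF-YAs did not (SE 0.156, adjusted p = 0.0131), nor did the difference of 0.16 between the lines (interval −0.17 to 0.50, adjusted p = 0.472). The NF-YAl call was lost without Empty B (adjusted p = 0.0182) or Empty C (0.0220). PTBP1 had log2FC −0.09 in NF-YAl, with an adjusted p of 0.561.

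CELF2 (chr10:10840360-11378674, + strand), a regulator of splicing in neurons, muscle and lymphocytes, was nearly silent. It had 0 counts in each Empty library, 0, 2 and 1 counts in the NF-YAl libraries, and 6, 12 and 12 counts in those of NF-YAs. Counts appeared in every NF-YAs library and in no Empty library. With a floor of 3 counts over the Empty group, the CELF2 level in NF-YAs, 0.497 CPM, was at least 12.3-fold higher. The filter left it out of the main test. Fitted without the filter it passed in NF-YAs (edgeR adjusted p = 0.000598) and not in NF-YAl (0.182), and the 3 NF-YAl counts allow no fold. Antisense genes overlap CELF2, and the strand setting of the counting was not given in the sources used here. Of the 4 leukocyte and endothelial markers, CD3E was at 0 to 0.0795 CPM, PTPRC at 0.0530 to 0.493 CPM and CDH5 at 0.0822 to 0.433 CPM over all libraries. PECAM1 was at 4.83 to 7.32 CPM in Empty and NF-YAl and at 1.59 to 2.12 CPM in NF-YAs, where CELF2 was highest, and their part in the CELF2 counts was not tested.

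SRSF9 (chr12:120899475-120933749, − strand), an SR protein that binds exonic enhancers, was the only SRSF gene called in NF-YAs. It measured 103, 111 and 113 CPM in Empty, 120, 149 and 175 CPM in NF-YAl, and 188, 195 and 188 CPM in NF-YAs. The groups stood in the order Empty, NF-YAl, NF-YAs without overlap. The log2FC was 0.80 in NF-YAs (SE 0.122, adjusted p = 0.000339) and 0.44 in NF-YAl (adjusted p = 0.0156, not called). DYNLL1 and GATC lie opposite SRSF9 and NRAV overlaps it on the same strand, so some of its reads may belong to them. Spans and overlaps, here and for the other genes, are those of the GENCODE annotation, while the counting used RefSeq transcripts.

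HNRNPA2B1 (chr7:26210771-26241149, − strand) encodes an RNA-binding protein of splicing and mRNA transport. Its values were 246, 228 and 226 CPM in Empty, 246, 263 and 334 CPM in NF-YAl, and 358, 337 and 338 CPM in NF-YAs. NF-YAs lay above all other libraries, and NF-YAl A was at the top of the Empty range. NF-YAs exceeded Empty by a log2FC of 0.56 (SE 0.115, adjusted p = 0.00245), and NF-YAl by 0.27 (adjusted p = 0.0933). Without Empty B, Empty C, NF-YAs A or NF-YAs C the adjusted p in NF-YAs rose to between 0.0102 and 0.0159. CBX3 and NFE2L3 overlap HNRNPA2B1 on the opposite strand. Its transcripts of 3666 and 3702 bases, the A2 and B1 forms, were not called for a changed share. The shorter one took 72.6 to 76.0% in Empty, 71.2 to 72.7% in NF-YAl and 70.9 to 76.1% in NF-YAs.

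TRA2A (chr7:23544399-23571660, − strand) activates exons with purine-rich enhancers. It was at 26.1, 25.5 and 26.2 CPM in Empty, 26.0, 27.6 and 34.5 CPM in NF-YAl, and 35.3, 37 and 34.2 CPM in NF-YAs. The NF-YAs libraries lay above every Empty library, and NF-YAl spanned the gap. The log2FC was 0.45 in NF-YAs (SE 0.114, adjusted p = 0.00846) and 0.18 in NF-YAl (adjusted p = 0.254). Among the called members, TRA2A lost its call most often: leaving out any 1 of the 6 libraries compared raised the adjusted p to between 0.0241 and 0.0382. Its paralogue TRA2B did not pass.

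**Figure D3:**
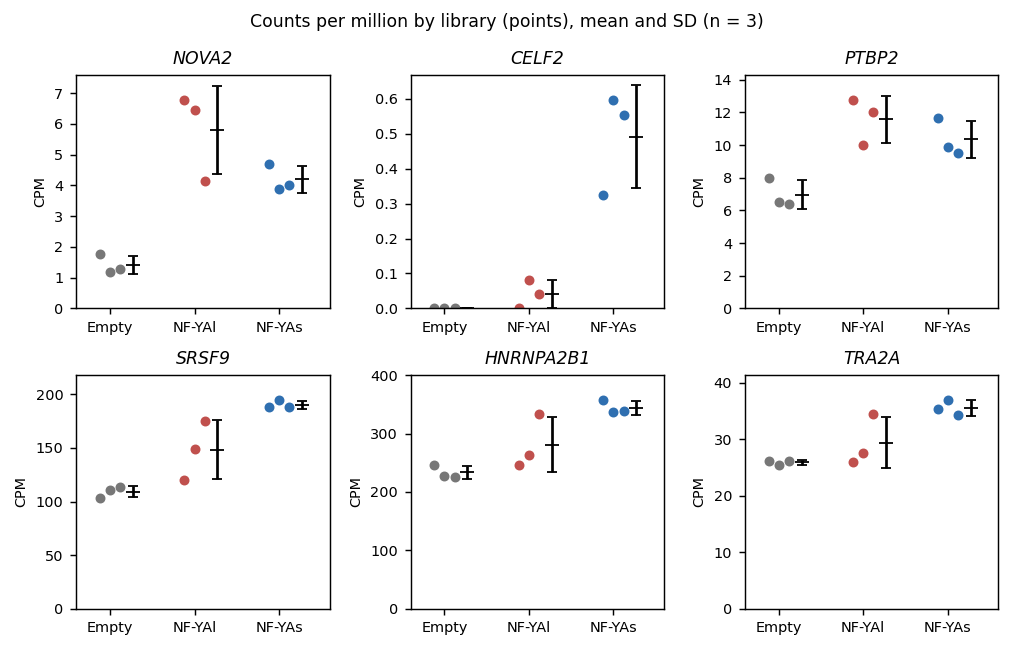
TMM-scaled CPM by library (points, in the letter order of each group) with mean and SD (n = 3) for the 5 called members and CELF2; each vertical axis starts at 0. NOVA2 and PTBP2 are higher in both NF-YA groups, whereas SRSF9, HNRNPA2B1 and TRA2A are tight and highest in NF-YAs and scattered in NF-YAl.

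Proliferation genes varied between the groups. The mean log2 CPM of 8 proliferation genes was 6.38 to 6.55 in Empty, 5.38 to 6.48 in NF-YAl and 6.64 to 6.71 in NF-YAs. Its part in the levels of SRSF9, HNRNPA2B1 and TRA2A was not tested. Of the 8 genes, 5 had a log2FC above 0 in NF-YAs (median 0.18) and 1 in NF-YAl (median −0.38). Against Empty, 0 were called in either line. In NF-YAl against NF-YAs, 0 of the 8 were above 0 (median −0.59). MKI67 and PLK1, named after their values were seen, were called lower in NF-YAl than in NF-YAs (25% of the 8, against 6.25% of all genes).

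Promoter sequences are shown for the 4 called members of largest change that have an entry in the RefSeq promoter table (GRCh38.p14), because NF-Y binds CCAAT. Each runs from 250 bases before to 50 bases after the start annotated in RefSeq, on the strand of the gene. Each matched GRCh37 once at the position given. The GENCODE spans of PTBP2, SRSF9 and HNRNPA2B1 given above begin upstream of these windows, and other starts were not searched. Capitals mark CCAAT or its reverse complement ATTGG.
NOVA2 promoter, chr19:46477074-46477373 (− strand): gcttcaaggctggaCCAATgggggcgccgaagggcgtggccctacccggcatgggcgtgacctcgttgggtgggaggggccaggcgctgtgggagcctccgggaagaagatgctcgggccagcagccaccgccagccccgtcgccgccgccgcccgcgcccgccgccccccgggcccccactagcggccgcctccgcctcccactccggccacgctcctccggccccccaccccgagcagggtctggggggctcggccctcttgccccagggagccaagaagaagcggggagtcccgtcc
PTBP2 promoter, chr1:97187944-97188243 (+ strand): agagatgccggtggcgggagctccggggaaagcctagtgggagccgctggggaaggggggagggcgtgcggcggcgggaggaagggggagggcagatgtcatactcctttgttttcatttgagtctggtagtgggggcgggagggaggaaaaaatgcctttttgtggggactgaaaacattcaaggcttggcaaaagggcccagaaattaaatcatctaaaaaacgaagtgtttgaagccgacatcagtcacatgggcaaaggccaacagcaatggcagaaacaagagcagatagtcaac
SRSF9 promoter, chr12:120907502-120907801 (− strand): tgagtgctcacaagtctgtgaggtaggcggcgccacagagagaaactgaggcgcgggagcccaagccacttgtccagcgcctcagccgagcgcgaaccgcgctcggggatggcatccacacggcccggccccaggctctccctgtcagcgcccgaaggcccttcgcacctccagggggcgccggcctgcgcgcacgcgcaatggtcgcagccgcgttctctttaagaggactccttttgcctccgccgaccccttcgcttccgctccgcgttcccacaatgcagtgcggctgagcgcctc
HNRNPA2B1 promoter, chr7:26240317-26240616 (− strand): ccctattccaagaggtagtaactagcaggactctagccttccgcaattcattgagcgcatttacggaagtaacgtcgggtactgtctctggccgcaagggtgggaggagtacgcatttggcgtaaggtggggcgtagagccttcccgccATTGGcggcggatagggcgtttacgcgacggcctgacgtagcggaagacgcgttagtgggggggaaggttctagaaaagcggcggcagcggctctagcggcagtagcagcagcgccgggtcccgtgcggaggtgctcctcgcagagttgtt

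The NOVA2 promoter held 1 CCAAT on the gene's strand, its first base at −236 from the start, in a window of 76.7% GC. HNRNPA2B1 held 1 on the reverse strand at −101 and was 60.3% GC. No match was found in these windows of SRSF9 (68.3% GC) and PTBP2 (54.0% GC). The motif, searched on both strands, was in 12155 of 35116 promoters of the table (34.6%), in 21 of the 51 members with an entry (41.2%) and in 17 of the 45 tested members with one (37.8%). HNRNPA1, HNRNPKP3, KHDRBS3, QKI, RBFOX2, SRSF2 and TRA2A had no entry. A match is a description of the sequence, and binding was not measured.

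The direct comparison asked whether the isoforms differ from each other. In NF-YAl against NF-YAs, 0 of 51 members were called in edgeR, 12 passed an unadjusted p under 0.05 (23.5%, against 36.5% of all genes), and DESeq2 called 0. Of all genes, 4.70% were called higher in NF-YAl and 6.25% lower, and 1.74% and 2.86% were higher and lower DEGs. The 95% interval lay within ±0.5 for 36 members (70.6%, against 33.9% of all genes), and the median log2FC was −0.02. The library values of the lines did not overlap for 12 members (23.5%, against 39.5% of all genes). SRSF9 was lower in NF-YAl by −0.36 (interval −0.62 to −0.10, adjusted p = 0.0496), HNRNPA2B1 by −0.29 (adjusted p = 0.0859) and TRA2A by −0.27 (adjusted p = 0.106), none of which passed.

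This comparison depended on NF-YAl D. It was the highest NF-YAl library for 39 of 51 members (76.5%, against 37.6% of all genes), NF-YAl A for 8 and NF-YAl B for 4. Summed over members, the CPM was 6767 to 6988 in Empty, 6284, 6771 and 8063 in NF-YAl A, B and D, and 7326 to 7492 in NF-YAs. The median coefficient of variation of a member was 15.3% among NF-YAl libraries, against 5.62% among Empty and 4.66% among NF-YAs libraries. Without NF-YAl D, 5 members were called lower in NF-YAl than in NF-YAs, next to 8.81% of all genes: HNRNPA2B1 (log2FC −0.43, adjusted p = 0.00350), SRSF2 (−0.51, 0.00399), SRSF9 (−0.50, 0.00362), TRA2A (−0.40, 0.00698) and HNRNPD (−0.38, 0.00930). SRSF2 and HNRNPD were named after their values were seen. The calls of NOVA2 and PTBP2 in NF-YAl against Empty held without NF-YAl D.

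The next question was whether the regulators' own transcripts changed in proportion. Shares of 154 transcripts from 40 member genes were tested, and 0 were called at an adjusted p under 0.01 with a difference of at least 10 percentage points in NF-YAl, in NF-YAs or between them (0.0312%, 0.0390% and 0.0195% of all 25666 transcripts). At an unadjusted p under 0.05, 13 passed in NF-YAl (8.44%, against 3.84% of all transcripts), 11 in NF-YAs (7.14%, against 4.53%) and 6 between the lines (3.90%, against 4.35%). With no limit on the difference, 2 of 154 member transcripts passed in NF-YAl against Empty (13 of all 25666). The same 2 passed in NF-YAl against NF-YAs (7 of all 25666). Both were minor forms named after their values were seen. The 2873-base transcript of HNRNPK took 4.86, 2.64 and 5.81% in Empty and at most 0.01% in NF-YAl, but 4.51, 0.07 and 0.04% in NF-YAs. The 3612-base transcript of HNRNPUL1 took 4.05, 0.65 and 11.2% in Empty and 0, 7.62 and 12.6% in NF-YAs, but at most 0.01% in NF-YAl.

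Shares of non-coding transcripts are given as a description. For the 12 members with both coding and non-coding RefSeq transcripts, the non-coding share was lower than in Empty without overlap for 4 in NF-YAl (HNRNPA3, HNRNPDL, SRSF3, SRSF6; 7.79% of 1951 genes with both kinds) and for 5 in NF-YAs (HNRNPDL, KHDRBS1, SRSF3, SRSF6, SRSF8; 10.4% of genes). It was higher for SRSF2 in NF-YAs (5.997% of genes). Between the lines it was lower in NF-YAl for HNRNPA1 (6.20% of genes) and higher for SRSF3 and SRSF6 (7.33% of genes). SRSF3, SRSF6, HNRNPDL and SRSF2 are described because of these values, chosen after they were seen, and none passed the transcript-share test. The smallest p that an exact permutation test allows for 3 libraries against 3 is 0.1.

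In these genes the non-coding transcript is longer than a coding one by the exact length of an inner GENCODE exon (lifted to GRCh37). Among exons of that length, only inner ones in no coding GENCODE transcript and in a transcript annotated for nonsense-mediated decay were kept. These traits were set by the choice and are not results. GENCODE also lists the SRSF6 exon in a transcript without a defined coding sequence and the SRSF2 exon in a retained-intron transcript. The exon was assigned by this choice and the match of lengths, and the exon structure of the RefSeq transcripts was not read. The exon has 456 bases in SRSF3 (chr6:36567598-36568053, + strand), 268 in SRSF6 (chr20:42087793-42088060, + strand), 105 in HNRNPDL (chr4:83346716-83346820, − strand) and 104 in SRSF2 (chr17:74731854-74731957, − strand). The splice junctions of these exons are shown with 15 bases on each side, intron in lower case and exon in capitals.
SRSF3 acceptor: tgaaccccgttacagAGTCACCATCATGTC
SRSF3 donor: TGAAACCCAAAACTAgtaagtttttcctgc
SRSF6 acceptor: gtttcaatttgaaagTGACCAATGGGGCTG
SRSF6 donor: ACCTCACACTGTGATgtaagtacttagtgt
HNRNPDL acceptor: gtttgtacccgccagCGGGAACTTCATTGC
HNRNPDL donor: AAACGCTGTCCTGTGgtatggtctcttcca
SRSF2 acceptor: tttccccctttaaagCTGCGGTCTCCTGTT
SRSF2 donor: CGTGTATTGGAGCAGgtttgtctttaaatg

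Each of the introns ends in ag before the exon and starts with gt after it. In SRSF3, an SR protein that also promotes mRNA export, the non-coding transcript made up 18.01, 20.8 and 23.8% of the gene in the Empty libraries, 17.01, 16.3 and 16.7% of it in the NF-YAl libraries and 10.9, 10.8 and 12.5% of it in the NF-YAs libraries. NF-YAs was the lowest group in every library (adjusted p of the share = 0.517 against Empty). The non-coding transcript was at 35.7 ± 4.59 CPM (SD, n = 3) in Empty and at 20.04 ± 1.23 CPM in NF-YAs, while the coding transcripts were at 118 ± 7.41 and 135 ± 4.75 CPM. The gene total had a log2FC of 0.01 in NF-YAs (adjusted p = 0.960).

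SRSF6, an SR protein of exonic enhancers, showed the same order. Empty libraries had 31.9, 33.5 and 38.7% of the gene in the non-coding transcript, NF-YAl libraries 29.7, 27 and 28%, and NF-YAs libraries 24.1, 19.8 and 21.8%. The groups did not overlap. The non-coding transcript was at 64.8 ± 6.84 CPM in Empty and 43.7 ± 3.96 CPM in NF-YAs, and the coding transcript at 114 ± 7.92 and 145 ± 5.59 CPM.

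HNRNPDL, a relative of HNRNPD, had non-coding shares of 21.04, 30.5 and 34.99% for Empty, which compare with 16.1, 17.8 and 14.9% for NF-YAl. The NF-YAs libraries had 16.3, 18.1 and 12.97%. Both NF-YA groups lay below Empty and overlapped each other, and Empty itself was wide. The share test gave an adjusted p of 0.495 in NF-YAl and 0.365 in NF-YAs. SRSF2 went the other way in NF-YAs, from 10.4, 10.8 and 11.8% for Empty to 12.4, 13.9 and 15.1%. The NF-YAl values were 17.5, 15.4 and 9.31%, and NF-YAl D lay below all Empty libraries. MFSD11 overlaps SRSF2 on the opposite strand.

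**Figure D4:**
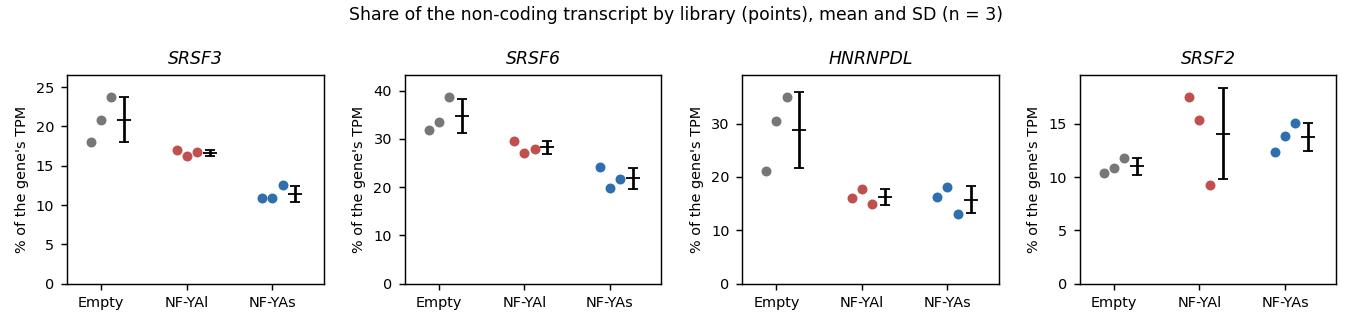
Share of the non-coding RefSeq transcript in its gene's TPM (percent) by library (points, in letter order) with mean and SD (n = 3). SRSF3 and SRSF6 are highest in Empty and lowest in NF-YAs without overlap, HNRNPDL is lower in both NF-YA groups, and SRSF2 is higher in NF-YAs.

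The machinery around the regulators was read from 3 lists. Of all tested genes, 19.6% were called in either direction in NF-YAl and 22.6% in NF-YAs. Of 10 genes for SR protein kinases and nuclear import, 0 were called higher and 1 lower in NF-YAl (10%). In NF-YAs, 0 were called higher and 3 lower (30%), and the medians were −0.22 and −0.28. TNPO3, the importer of SR proteins, was the gene lower in NF-YAl (−0.41), and it fell in NF-YAs as well (−0.41) with the kinases SRPK1 (−0.57) and DYRK1A (−0.49). Of 39 core spliceosome genes, SF3B3 (−0.72) and DHX38 (−0.57) fell in NF-YAl, and the U5 components EFTUD2 (0.79) and SNRNP200 (0.61) rose in NF-YAs. EFTUD2 also differed between the lines (−0.61 in NF-YAl against NF-YAs). The share of this list that was called was 5.13% in NF-YAl and 5.13% in NF-YAs, below that of all genes. Between the lines it was 2.56%, against 11.0% of all genes. The medians of this list were −0.08, 0.10 and −0.17 in the 3 comparisons. The genes of these lists were named after their values were seen.

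Among 36 tested other RNA-binding splicing regulators, 1 was called higher and 0 lower in NF-YAl (2.78%, against 19.6% of all genes). In NF-YAs, 4 were called higher and 1 lower (13.9%, against 22.6% of all genes). The medians were 0.06 and 0.08. SRRM3, an activator of neuronal microexons, had 0.294, 0.477 and 0.433 CPM in Empty, 0.371, 0.736 and 0.534 CPM in NF-YAl, and 2.91, 3.43 and 2.90 CPM in NF-YAs. All NF-YAs libraries were above all others (log2FC 2.92 against Empty, SE 0.306, adjusted p = 2.3e-05; −2.46 in NF-YAl against NF-YAs, adjusted p = 0.000177). RBM20, known for titin splicing in heart, was a DEG between the lines only (−1.34, adjusted p = 0.00666).

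The epithelial splicing regulators ESRP1 and ESRP2 did not move together. ESRP2 was at 34.7, 32.5 and 31.6 CPM in Empty, 26.5, 39.5 and 42.1 CPM in NF-YAl, and 19.1, 22.3 and 20.6 CPM in NF-YAs, where it fell by 0.67 on the log2 scale (SE 0.154, adjusted p = 0.00476). It was higher in NF-YAl than in NF-YAs (0.81, adjusted p = 0.00318), with the groups not overlapping. ESRP1 was scarce and scattered, at 0.0795 to 0.236 CPM in Empty, 0.0530 to 1.60 CPM in NF-YAl and 0.348 to 1.29 CPM in NF-YAs, and was not called (adjusted p = 0.0425 and 0.0358). LUC7L3, a U1-associated factor, rose in both lines (0.79 and 0.66), and TIAL1 (0.51) and SRRM1 (0.47) rose in NF-YAs; these 3 were named after their values were seen.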

How the data were processed

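Total RNA of PC3 MTSs was sequenced from stranded libraries, 3 in each group. The authors aligned reads to GRCh37/hg19 RefSeq transcripts with bowtie2 inside RSEM 1.3.1. They deposited, for each gene and transcript, expected counts, TPM values (scaled by effective length) and isoform percent, the percent of a gene's TPM held by each transcript. Transcript forms are estimates, and the strand setting was not given in the sources used here.

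After rounding, the counts entered edgeR 4.0.16 (R 4.3.3, limma 3.58.1) with filterByExpr, TMM scaling, a quasi-likelihood fit over all 9 libraries with group as the term, and Benjamini-Hochberg adjustment over all genes. CPM values are these counts scaled to the library total after TMM. Transcript shares were tested with diffSpliceDGE. The scripts were tested on simulated counts. Python 3.11.15 with pandas 2.3.3 and matplotlib 3.10.9 made the other values. Alternatives covered DESeq2 1.42.0, scaling, filters, a replicate block and leaving out each library.

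Members and gene lists were chosen with earlier results of these data known. Named are NFYA, filtered members, called members, each family's most abundant member, ESRP1, ESRP2 and listed DEGs, and promoters of the called members of largest change. Other genes are marked as chosen after their values were seen. Replicate libraries differed beyond counting error. Whether they come from separate cultures rests on the study's word, so p-values measure the spread between these libraries.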

Additional observations from a re-analysis of the deposited data

How the results depend on the processing

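NOVA2 in both comparisons and SRSF9 in NF-YAs passed in all 12 alternatives run, with log2FC of 1.91 to 2.22, 1.45 to 1.75 and 0.77 to 0.83. PTBP2 passed in 9 of 12, HNRNPA2B1 in 8 and TRA2A in 6, none changing sign. DESeq2 called 5 members higher and 2 lower in NF-YAl (11.2% and 10.8% of all genes), and 8 higher and 1 lower in NF-YAs (12.9% and 11.1%), of which 2 were DEGs. Without the filter NF-YAs had 2 DEGs, the added one CELF2. Fitting only the groups compared gave 1 higher in NF-YAl (6.65% of all genes), and 11 higher and 2 lower of 50 tested in NF-YAs (18.9% and 17.2%). At an adjusted p under 0.05, there were 5 higher and 2 lower in NF-YAl (16.2% and 15.9% of all genes), 10 higher and 3 lower in NF-YAs (18.5% and 16.9%), and 2 lower in NF-YAl against NF-YAs (12.5%). With no limit on the size of the share difference, 2 of 154 member transcripts passed in NF-YAl against Empty (13 of all 25666). In the direct comparison 2 passed (7 of all 25666).

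Leaving out 1 library at a time gave 1 to 4 members higher and 0 to 1 lower in NF-YAl. Of all genes, 5.84 to 12.3% were called higher there and 5.77 to 12.2% lower. In NF-YAs, 2 to 4 members were higher, against 7.20 to 8.65% of all genes, and 1 to 2 were DEGs. The direct comparison had 0 to 5 members lower, against 2.97 to 8.81% of all genes, and 0 to 1 transcripts. The lowest NF-YAl count, 1, came without Empty B or C, and the highest, 4, without NF-YAl A. HNRNPA1 was called lower without NF-YAl D. The NF-YAs count of 2 came without NF-YAs C, and the 1 transcript, of HNRNPUL1, without NF-YAs A. The second DEG, CELF2, passed the filter without any 1 Empty library or NF-YAs A. It also passed the filter without any 1 NF-YAl library, where NF-YAs was not compared with Empty. CELF2 had 0 counts in Empty and at most 2 in an NF-YAl library, so it entered these fits on its NF-YAs counts alone. Its call as a DEG in these fits was thus not independent of the filter. Fitted with no filter, it passed in NF-YAs as well (edgeR adjusted p = 0.000598). The causes were not tested.

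The labels do not say whether the replicate letters pair the libraries. For libraries of the same letter, deviations from group means correlated at 0.0771, −0.0128 and 0.0984 for Empty with NF-YAs. The values were 0.123 and 0.253 for Empty with NF-YAl, and −0.0652 and 0.130 between the lines. For different letters the correlations ran from −0.220 to 0.163, and for Empty with NF-YAl they were at most 0.0351. These values do not settle whether the letters pair the libraries. A replicate block, in which NF-YAl D is alone with its letter and adds nothing to the group difference, gave 1 lower in NF-YAl (12.6% of all genes), 9 higher and 2 lower in NF-YAs (16.3% and 14.8%), and 4 lower in the direct comparison (9.43%; HNRNPA2B1, HNRNPD, SRSF2 and SRSF9). It changed no other count by over 1.5 times. Depth limits CELF2 and the other filtered members, whose counts of at most 12 give no fold beyond the bound stated.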

Other observations

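Single libraries stood out for a few members, chosen after their values were seen and given as values only. RBFOX3, a neuronal member of the RBFOX family, was at 3.53 CPM in NF-YAs B and at 1.27 to 1.81 CPM in the other libraries. HNRNPH2, an X-linked relative of HNRNPH1, was at 105 CPM in NF-YAl D, against 43.8 and 61.8 CPM in NF-YAl A and B and 71.8 to 78.2 CPM in NF-YAs. The 1845-base transcript of TRA2A took 51.8% of its gene in NF-YAl D and 65.4 to 81.0% elsewhere. The 3469-base non-coding transcript of PTBP2 ranged from 0% in NF-YAl D to 61.0% in NF-YAs A.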
